A study of Mus musculus with 2 samples.

Results

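The genes described here encode 8 enzymes that make non-essential amino acids: Phgdh, Psat1 and Psph of serine synthesis, Asns of asparagine synthesis, Gpt2 of alanine synthesis, and Aldh18a1, Pycr1 and Oat of proline synthesis and its link to ornithine. They were chosen by name, as synthesis enzymes of which many are known targets of the transcription factor ATF4, and all 8 were found among the 54532 gene identifiers of the table. Expression was measured by bulk RNA-seq in primary CD8+ T cells from the spleens of wild-type mice, which the labels call ND mice, after 8 h in complete RPMI 1640 or in RPMI 1640 lacking methionine. There was 1 library per medium, so no difference could be tested against the spread between replicates. Strain, age, the number of animals, the way the cells were isolated and whether they were stimulated are not stated in the labels. The labels name a whole-RNA and an mRNA library kit without saying which made which library.

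These enzymes build amino acids from intermediates of sugar and glutamate metabolism. Serine is made from the glycolytic intermediate 3-phosphoglycerate, asparagine from aspartate, proline from glutamate and alanine from pyruvate, and most of these steps take their nitrogen from glutamate or glutamine. When an amino acid is scarce, uncharged tRNA activates the kinase GCN2, translation of ATF4 rises, and ATF4 is known to activate transcription of several of these genes, Asns being the classic example. Dividing T cells use serine as a source of carbon units for nucleotides. The standard formula of RPMI 1640 holds serine, asparagine and proline but no alanine.

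The complete-medium library held 14646527 counts and the methionine-free library 19647681. All 8 genes passed the minimum of a mean of 10 counts that 13041 genes passed, with between 722 and 11912 counts per library. Cd8a, which encodes the CD8 alpha chain, was at 664 and 527 CPM. CPM here means counts per 1000000 scaled counts of a library, and each pair of values gives complete medium before methionine-free medium. Of the 3 CD4 T cell markers, Cd4 had 9 and 11 counts, Foxp3 52 and 78, and Cd40lg 2 and 16, and they summed to 4.29 and 5.36 CPM. Of 12 myeloid and dendritic marker genes 8 had fewer than 10 counts in both libraries, as had 4 of 5 natural killer, 5 of 8 erythroid and platelet and 4 of 6 stromal and endothelial markers. Eomes, the remaining gene of the natural killer list, had 2341 and 2669 counts, while the other 4 had at most 4 in either library. Of the erythroid and platelet list, Hba-a1 had 2 and 26 counts, Hbb-bs 19 and 9, and Itga2b 30 and 34. Among stromal and endothelial markers, Pecam1 had 521 and 423 counts and Col1a2 21 and 50. The other 4 myeloid and dendritic markers had higher levels without methionine, among them Flt3 with 33 and 149 counts and Cst3 with 720 and 1146, and the 12 summed to 58.4 and 73.9 CPM. The 7 B cell markers summed to 209 and 128 CPM, mostly Ighm at 196 and 120 CPM, and none was at 0. In bulk RNA, fewer cells of a type and less RNA per cell cannot be told apart. The cell cycle list was lower as well, with all 25 genes at least 1.5-fold lower and a summed level of 5920 and 1488 CPM. Mki67, which encodes the proliferation marker Ki-67, had 7040 and 411 counts. The part of RNA from other cell types or of the lower cell cycle genes in the results below was not tested.

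All 8 synthesis genes had a lower level without methionine, and none was higher. Serine synthesis genes summed to 1715 CPM in complete and 1074 CPM in methionine-free medium, those of asparagine and alanine synthesis to 410 and 248 CPM, and those of proline synthesis to 463 and 403 CPM. Phgdh, Psph, Gpt2 and Asns were at least 1.5-fold lower, while Oat, Psat1, Pycr1 and Aldh18a1 lay between that threshold and equality. Folds are ratios of scaled counts, and each is followed by its exact 95% interval, which accounts for counting error and for nothing that varies between animals or cultures. Of the 13041 genes, 47.6% had a lower level without methionine and 18.0% were at least 1.5-fold lower, against 8 and 4 of these 8. At least 1.5-fold higher were 15.7% of all genes and none of the 8. None of the 8 reached 2-fold lower, which 9.29% of all genes did. The median log2 difference was -0.58 over the 8 genes and 0.04 over all genes.

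**Figure D1:**
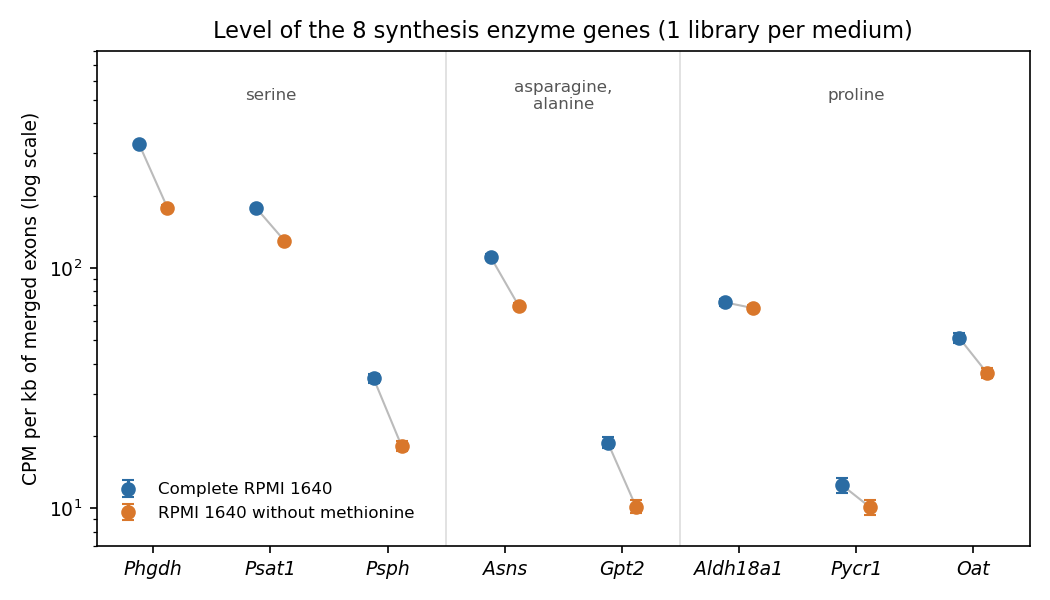
Level of each gene in CPM per kb of merged exons (log axis), in complete medium (blue) and without methionine (orange), 1 library each; error bars are exact 95% Poisson intervals of the count and are smaller than the point for most genes. All 8 orange points lie below their blue partner, from 326 to 178 for Phgdh and from 71.9 to 68.1 for Aldh18a1.

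Phgdh encodes phosphoglycerate dehydrogenase, which oxidises 3-phosphoglycerate and starts serine synthesis. Its counts were 11912 in complete and 8687 in methionine-free medium, or 811 and 443 CPM, and was 1.83-fold lower (1.78 to 1.88). The gene (ENSMUSG00000053398) spans positions 98313170 to 98339990 of chromosome 3 on the minus strand. Psat1, the phosphoserine aminotransferase gene of the middle step, had 11064 and 10818 counts. Its level of 753 and 552 CPM was 1.36-fold lower (1.33 to 1.40), a smaller difference than that of Phgdh. It lies on the minus strand of chromosome 19, 15904678 to 15947337 (ENSMUSG00000024640). Psph encodes the phosphatase that releases free serine in the last step. With 2212 and 1542 counts, or 151 and 78.7 CPM, it was 1.91-fold lower (1.79 to 2.04), the largest difference of the 8, though not separable from those of Phgdh and Gpt2 by counting error. Psph (ENSMUSG00000029446, chromosome 5, 129765558 to 129787449, minus strand) shares 452 exon bases with Cct6a on the opposite strand, and no source used here says if reads were counted by strand. Cct6a, a chaperonin subunit gene, went the other way, with 7156 and 13064 counts and a ratio of 1.37. The first and the last step of serine synthesis thus lay at nearly the same ratio, and the middle step closer to equality.

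Asns encodes asparagine synthetase, which transfers an amide from glutamine to aspartate. Its counts were 4460 and 3724, or 304 and 190 CPM, which made it 1.60-fold lower (1.53 to 1.67). It is on the minus strand of chromosome 6, 7675169 to 7693254 (ENSMUSG00000029752). Gpt2 encodes the mitochondrial alanine aminotransferase, which makes alanine from pyruvate with glutamate as the donor. It had 1557 and 1126 counts, or 106 and 57.5 CPM, and was 1.84-fold lower (1.71 to 1.99). Gpt2 (ENSMUSG00000031700, chromosome 8, 85492576 to 85527560) is the one member on the plus strand. Its cytosolic relative Gpt, at 77 and 105 counts, had a ratio of 1.02. Its interval of 0.754 to 1.39 held 1 and left out a level as low as that of Gpt2.

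Of the proline genes, Aldh18a1 encodes the mitochondrial enzyme that turns glutamate into the precursor of proline, and it differed least of the 8. Its counts of 4301 and 5433, or 293 and 277 CPM, gave a 1.06-fold lower level (1.01 to 1.10). Pycr1, which encodes a mitochondrial reductase of the last step, had the fewest counts of the 8, 722 and 779, or 49.2 and 39.8 CPM. It was 1.24-fold lower (1.12 to 1.37). Oat encodes the mitochondrial ornithine aminotransferase, which joins ornithine to the same precursor. Its 1773 and 1685 counts, or 121 and 86.0 CPM, made it 1.40-fold lower (1.31 to 1.5). Aldh18a1 (ENSMUSG00000025007, chromosome 19, 40550257 to 40588463), Pycr1 (ENSMUSG00000025140, chromosome 11, 120635712 to 120643769) and Oat (ENSMUSG00000030934, chromosome 7, 132557478 to 132576398) are all on the minus strand. The counting interval of every one of the 8 genes lay below a ratio of 1, which held for 31.5% of all genes, and 4 of the 8 had the whole interval past 1.5-fold lower, against 9.72%. Apart from Psph, no member shared exon bases with another annotated gene. The processed pseudogene Phgdh-ps1 had 0 counts in both libraries, and those inside Psat1 and Aldh18a1 had at most 9.

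**Figure D2:**
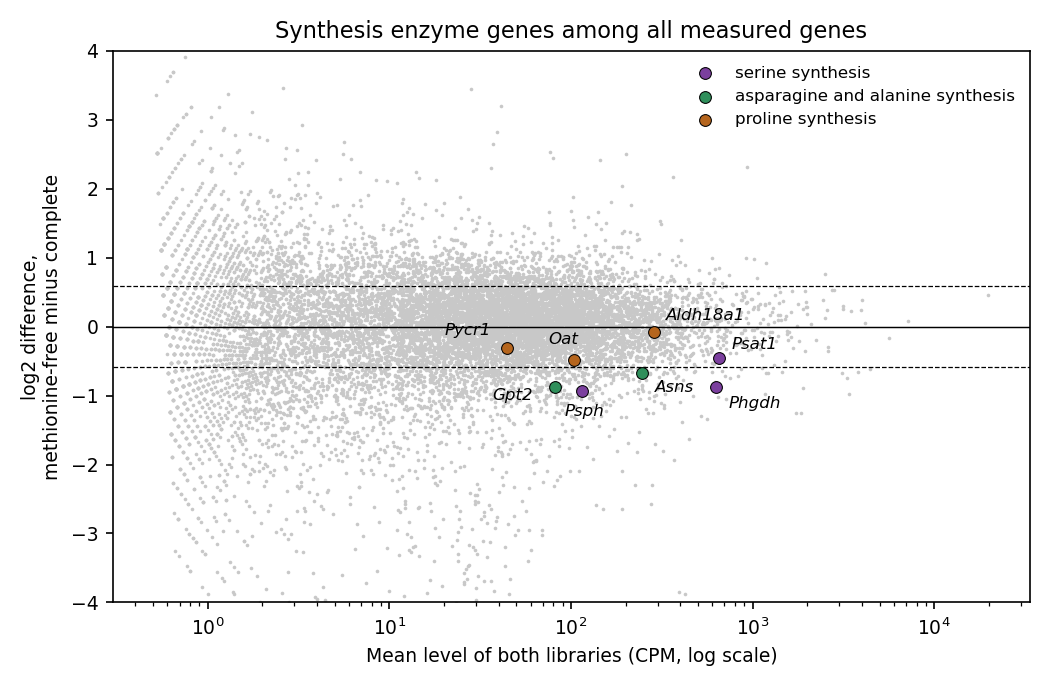
Log2 difference (methionine-free minus complete) against the mean level in CPM (log axis) for all 13041 measured genes (grey) and the 8 synthesis genes (coloured by product); dashed lines mark 1.5-fold, and 87 genes lie beyond the plotted range. The 8 genes lie below 0, from -0.94 for Psph to -0.08 for Aldh18a1, within the cloud of other genes.

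Within the whole set of measured genes these differences were moderate. Psph had a log2 difference of -0.94, and 10.2% of all measured genes lay lower still. The share of genes lying lower was 11.2% for Gpt2, 11.3% for Phgdh and 15.4% for Asns. It was 21% for Oat, 22.5% for Psat1, 28.6% for Pycr1 and 42.3% for Aldh18a1. Together the 8 genes took 0.259% of the counts in complete medium and 0.172% without methionine, most of it from Phgdh and Psat1.

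The 8 genes differed among themselves beyond counting error. Of their 28 pairs, 23 had a ratio of folds whose 95% counting interval excluded 1, without adjustment over the pairs. Phgdh, Psph and Gpt2 could not be separated from each other: the methionine-free to complete ratio of Phgdh was 1.05 times that of Psph (0.974 to 1.12) and 1.01 times that of Gpt2 (0.929 to 1.10), and that of Psph was 0.964 times that of Gpt2 (0.871 to 1.07). Psat1 could not be separated from Oat or Pycr1, with ratios of 1.03 (0.957 to 1.11) and 0.906 (0.815 to 1.01). Pycr1 and Oat were narrowly apart from each other, with Pycr1 at 1.14 times the ratio of Oat (1.004 to 1.28). Phgdh and Psat1, neighbours in the serine route, did differ, with Phgdh at 0.746 times the ratio of Psat1 (0.718 to 0.775). Asns lay between Gpt2 and Oat, with 1.15 times the ratio of Gpt2 (1.06 to 1.26) and 0.879 times that of Oat (0.811 to 0.952). Aldh18a1 differed from each of the other 7, least from Pycr1, with 1.17 times its ratio (1.05 to 1.31).

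**Figure D3:**
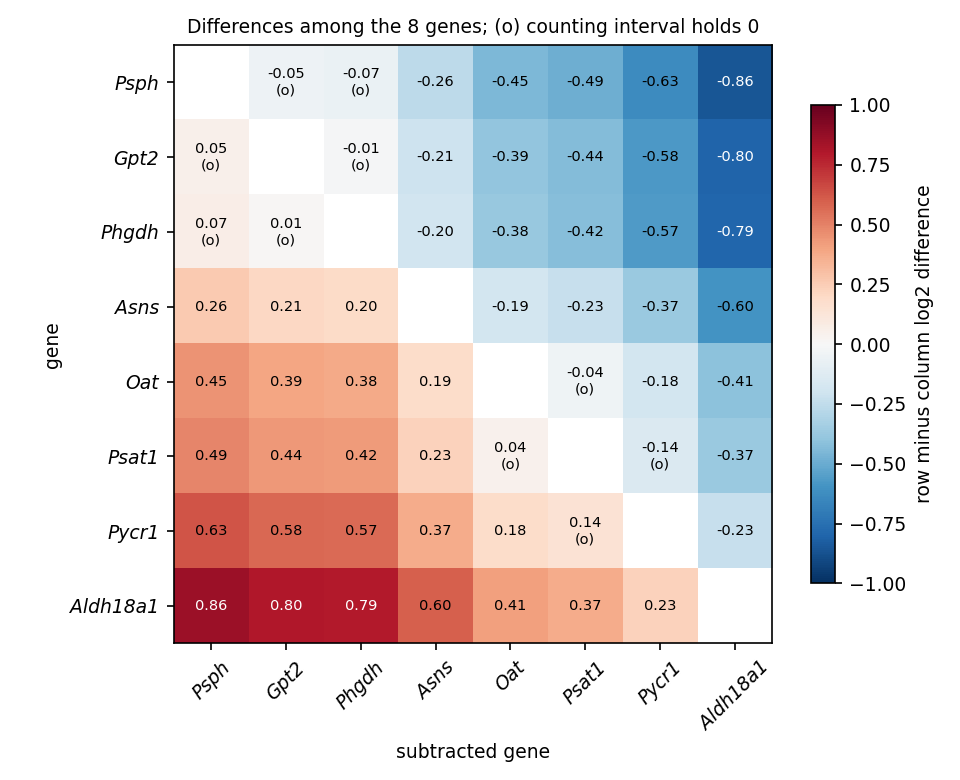
Row gene minus column gene in log2 difference between the libraries, for every pair of the 8 genes ordered from the lowest difference; (o) marks the 5 pairs whose 95% counting interval holds 0. Psph, Gpt2 and Phgdh form a block of small values, and Aldh18a1 differs from Psph by 0.86.

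The order of the levels, taken per length as CPM per kb of merged exons, was the same in both libraries. In complete medium it ran from Phgdh at 326 over Psat1 at 177, Asns at 111, Aldh18a1 at 71.9, Oat at 51.2, Psph at 34.8 and Gpt2 at 18.8 to Pycr1 at 12.5 CPM per kb. No neighbours in that order had overlapping Poisson intervals. Without methionine the values were 178, 130, 69.5, 68.1, 36.4, 18.2, 10.2 and 10.1 CPM per kb in the same order. There the intervals of Asns (67.3 to 71.8) and Aldh18a1 (66.3 to 69.9) overlapped, as did those of Gpt2 (9.60 to 10.8) and Pycr1 (9.41 to 10.8). The level of Phgdh was 1.84 times that of Psat1 in complete medium and 1.37 times without methionine. Merged exons include those of rare transcripts, so the level per kb of a gene such as Psph, with 4329 merged bases, may be understated against Phgdh, with 2486.

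Promoter sequences are shown for Asns and Pycr1, which hold a match to the element bound by ATF4 with C/EBP partners, for Aldh18a1, which holds the E-box that MYC family proteins bind, and for Phgdh, which has the highest level per length and neither match. The motifs were TGATGNAA on both strands for the first element and CACGTG, which reads the same on both strands, for the second; they do not overlap here. Each line gives the 250 bases before the RefSeq start of the gene (GRCm38.p6), 5′ to 3′ along the gene, with motif matches in capitals.
Asns (chr6:7693210-7693459, minus strand): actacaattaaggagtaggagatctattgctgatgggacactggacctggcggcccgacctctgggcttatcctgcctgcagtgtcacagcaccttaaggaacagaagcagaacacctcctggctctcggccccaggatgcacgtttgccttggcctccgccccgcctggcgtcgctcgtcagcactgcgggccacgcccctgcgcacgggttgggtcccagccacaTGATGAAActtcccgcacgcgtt
Pycr1 (chr11:120643749-120643998, minus strand): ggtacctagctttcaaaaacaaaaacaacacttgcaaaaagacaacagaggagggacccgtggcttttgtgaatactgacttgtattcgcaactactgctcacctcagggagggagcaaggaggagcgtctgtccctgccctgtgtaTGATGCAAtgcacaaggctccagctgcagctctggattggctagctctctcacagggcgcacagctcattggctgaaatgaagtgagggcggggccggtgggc
Aldh18a1 (chr19:40588464-40588713, minus strand): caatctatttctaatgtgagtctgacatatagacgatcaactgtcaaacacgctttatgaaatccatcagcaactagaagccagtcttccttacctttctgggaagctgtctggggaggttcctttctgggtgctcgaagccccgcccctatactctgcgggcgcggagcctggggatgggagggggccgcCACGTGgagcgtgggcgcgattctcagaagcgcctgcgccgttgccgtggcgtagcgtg
Phgdh (chr3:98339970-98340219, minus strand): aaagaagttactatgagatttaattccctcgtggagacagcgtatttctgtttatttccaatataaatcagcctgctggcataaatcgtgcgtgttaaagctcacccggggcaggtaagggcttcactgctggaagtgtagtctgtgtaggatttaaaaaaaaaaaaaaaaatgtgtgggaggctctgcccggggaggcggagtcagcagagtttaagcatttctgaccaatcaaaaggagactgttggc

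The Asns match TGATGAAA begins 23 bases before the RefSeq start, the Pycr1 match TGATGCAA 103 bases before it, and the Aldh18a1 match CACGTG 59 bases before it. All 8 genes had a RefSeq window of 250 bases before to 50 after the start, and Psat1 had a pair of them, which makes 9 windows. The first motif was in 2 of these 9 windows and in 3.97% of all 32851 windows of that length, and the second in 1 of 9 and in 7.15%. The windows of Psat1, Psph, Oat, Gpt2 and Phgdh held neither set of letters. The carriers of the first motif, Asns and Pycr1, were 1.60-fold and 1.24-fold lower. A link between the motif and the size of the difference was not tested. GC content ranged from 47.7% in Phgdh to 66.7% in a Psat1 window, with a median of 60.3% against 52.7% over all windows. CpG dinucleotides numbered from 11 in Phgdh and Pycr1 to 30 in that Psat1 window, with a median of 20 against 7 over all windows.

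Other genes around the serine route lay on both sides of equality. Of 10 measured genes of serine use, 2 were at least 1.5-fold lower and 1 higher, with a median log2 difference of -0.12. Over all genes, 18.0% were at least 1.5-fold lower and 15.7% higher. Shmt1, the cytosolic enzyme that splits serine to glycine and a folate-bound carbon, was 1.87-fold lower (1.75 to 2.0). Its mitochondrial counterpart Shmt2, at 917 and 700 CPM, was 1.31-fold lower (1.28 to 1.34). Sptlc2, a subunit of the enzyme that joins serine to palmitoyl-CoA for sphingolipids, was 1.53-fold lower (1.36 to 1.71), and Serinc1, which encodes a membrane protein linked to serine incorporation into lipids, 1.62-fold higher (1.52 to 1.72). In the list of lower glycolysis and glycerate genes, which surrounds the precursor of serine, 4 of 7 were at least 1.5-fold lower and 1 higher, with a median of -0.65. Pgk1, whose enzyme makes 3-phosphoglycerate, went from 2447 to 1321 CPM and was 1.85-fold lower (1.82 to 1.88). Eno3, an enolase gene, was 2.34-fold lower (2.13 to 2.58), and Glyctk, a glycerate kinase gene with 43 and 104 counts, 1.81-fold higher (1.26 to 2.65).

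Asparagine, aspartate and urea-cycle genes lay lower more often than higher. Of the 13 genes measured, 12 had a lower level without methionine, 3 of them by 1.5-fold or more. None was 1.5-fold higher, and the median was -0.33. Over all genes, 47.6% had a lower level, 18.0% were at least 1.5-fold lower and 15.7% at least 1.5-fold higher. Ass1, whose enzyme, argininosuccinate synthase, consumes aspartate, had 369 and 140 counts and was 3.52-fold lower (2.89 to 4.30). Adssl1, with 35 and 15 counts, was 3.11-fold lower (1.66 to 6.14), and Slc25a13, a mitochondrial aspartate-glutamate carrier gene, 1.70-fold (1.45 to 2.0). The aspartate aminotransferase genes lay on opposite sides of equality: cytosolic Got1 had a ratio of 1.15 (1.09 to 1.20) and mitochondrial Got2 was 1.34-fold lower (1.29 to 1.41).

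In the proline and ornithine list 1 of 10 measured genes was at least 1.5-fold lower and none higher, with a median of -0.17. Pycr3, listed as Pycrl, which encodes a reductase of the last proline step, was 1.22-fold lower (1.09 to 1.36). The genes of proline breakdown had few counts. Prodh, with 106 and 113, and Aldh4a1, with 94 and 160, had ratios of 0.799 (0.608 to 1.05) and 1.28 (0.983 to 1.66), whose intervals held 1. P4ha2, which encodes a collagen prolyl hydroxylase subunit, was the lower member, at 251 and 71 counts, and Pepd, the dipeptidase gene that frees proline from dipeptides, had a ratio of 1.49 (1.33 to 1.68). In the glutamate and transaminase list 2 of 11 were lower and none higher, beside those same shares of all genes, with a median of -0.07. Gls2, a glutaminase gene, was 5.08-fold lower (3.94 to 6.61) on 293 and 77 counts, and Kyat3, a kynurenine aminotransferase gene, 1.69-fold (1.34 to 2.14). Oplah, the 5-oxoprolinase gene, had 25 and 46 counts, a ratio of 1.38 (0.830 to 2.34).

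**Figure D4:**
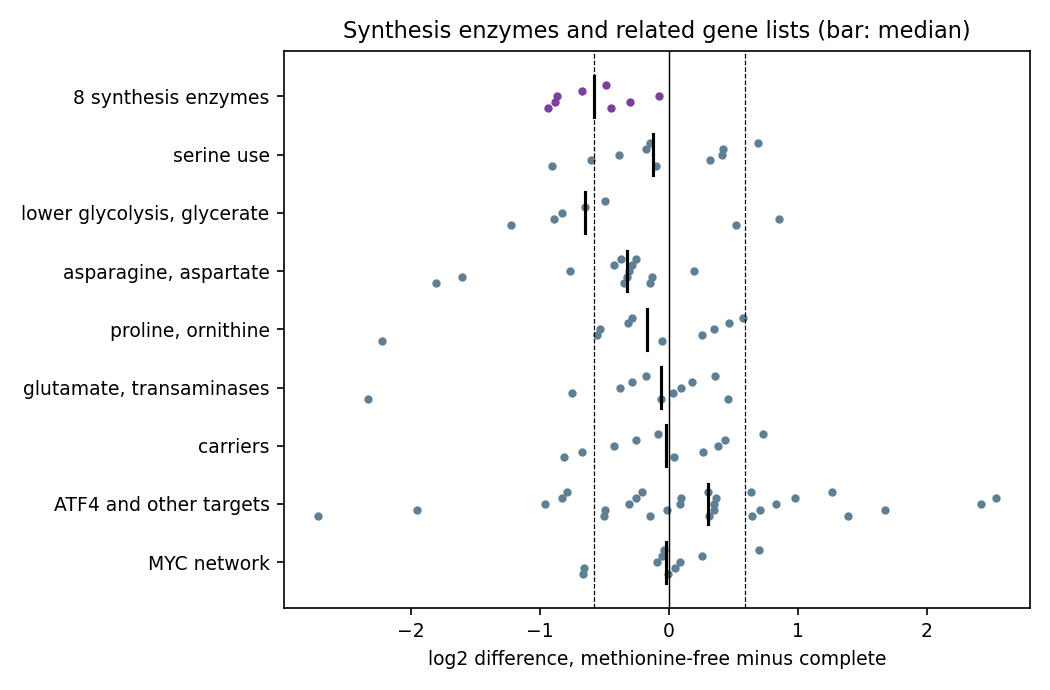
Log2 difference (methionine-free minus complete) of each measured gene of the 8 synthesis enzymes (purple) and 8 related lists (grey-blue); the vertical bar is the list median and dashed lines mark 1.5-fold. The synthesis enzymes lie at or below -0.08 with a median of -0.58, and the list of ATF4 and its other targets spans both sides with a median of 0.30.

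ATF4 and its targets outside the 8 genes lay on both sides of equality in the same libraries. Of 29 measured genes, 10 were higher by at least 1.5-fold and 5 lower, against 4 lower and none higher among the 8 synthesis genes. Over all genes the shares were 15.7% higher and 18.0% lower. Atf4 transcripts went from 448 to 796 CPM, Ddit3, which encodes the stress factor CHOP, from 22.6 to 131 CPM, and Atf5, a related transcription factor gene, from 45.3 to 243 CPM. The other higher genes, listed here after their values were seen, were Trib3, Cebpb, Cebpg, Ppp1r15a, Nupr1, Aars and Xpot. The 5 lower genes, listed here after their values were seen apart from Vldlr, were Vldlr, Cth, Ddit4, Mthfd1l and Jdp2. Vldlr, a lipoprotein receptor gene, had the largest difference of the list, from 126 to 25 counts, and was 6.72-fold lower (4.35 to 10.8). Cth, of cysteine synthesis, went from 100 to 25.8 CPM, and Mthfd1l, of mitochondrial folate metabolism, from 387 to 217 CPM. Of 30 promoter windows found for 24 of the genes, 9 held the TGATGNAA motif. That motif was in 3.97% of all 32851 windows and in 2 of the 9 windows of the 8 synthesis genes. A gene can have more than 1 window, so these are counts of windows. With 1 library per medium, the difference between this list and the 8 genes was not tested.

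Among the genes of the related lists nearest to the median of the 8, out of 91 that averaged 100 counts or more, were Sptlc2 and P4hb. Their log2 differences of -0.61 and -0.54 lay 0.03 and 0.05 from -0.58, a likeness over 2 libraries. P4hb encodes protein disulfide isomerase, which is also a subunit of prolyl hydroxylase.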

How the data were processed

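The authors deposited raw read counts per Ensembl gene for 2 libraries, whole numbers with no scaling. Per the submitters' processing notes, reads were placed on mm10; aligner, counter, annotation and use of strand are not stated in the labels or the header. Columns were matched to the samples by the word control, misspelt, and by the start Met. Symbols, spans and merged exon lengths came from GENCODE M21, on the same assembly, and 54495 identifiers matched. Counts were scaled by TMM in edgeR 4.0.16 (R 4.3.3). The log2 difference, methionine-free minus complete, added a prior of 0.5 counts, adjusted to each library's size. Of all genes, 13041 averaged 10 counts or more and were measured. Genes were called by size, at 1.5-fold. Intervals came from scipy 1.17.1 and cover counting error only, with 1 library per medium. They take each count as independent, and no molecular identifiers are named by which this could be checked. The steps were tested on simulated data.

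The members, lists, thresholds and naming rule were chosen with earlier results of these data known. The rule named the 8 members, the 3 genes of each of 8 related lists with the largest absolute difference, the 3 genes nearest to the members' median, and Atf4, Ddit3, Pycr3, Gpt, Got1, Got2, Prodh, Aldh4a1, Shmt2, Slc1a4, Slc1a5, Slc38a2, Myc, Mki67 and Cd8a; some results the rule asks for are not reported here. Cct6a, the cell type markers other than Cd8a and the pseudogenes were named after their values were seen. So were the ATF4 targets past 1.5-fold other than Atf4, Ddit3, Atf5 and Vldlr. Other scalings (DESeq2 1.42.0 size factors among them), prior counts, count minimums and call rules were tried.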

Additional observations from a re-analysis of the deposited data

How the results depend on the processing

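Under 4 other scalings (DESeq2 size factors, total counts, upper quartile, and TMM without cell cycle and top genes) and with a smaller and a larger prior count, each of the 8 log2 differences moved by less than its counting interval. The median ranged from -0.59 to -0.57, and the scalings moved the median of all genes by at most 0.01. With a minimum mean of 100 counts, with no minimum, and with the whole counting interval past 1.5-fold, 4 of the 8 genes were again lower and none higher. At 2-fold, 0 of the 8 were lower, against 9.29% of all genes. Of the 98 measured genes of the related lists, 7 were lower and 5 higher at 2-fold, against 21 and 14 at 1.5-fold. Over all 13041 genes, 2346 were lower and 2050 higher at 1.5-fold, or 18.0% and 15.7%. These counts were 6312 and 4898 with no minimum and 1300 and 1163 at a minimum mean of 100 counts. Those counts are not out of 13041 genes, because each minimum keeps another number of genes. Of the same 13041 genes, 1211 were lower and 756 higher at 2-fold, and 1268 and 834 with the whole interval past 1.5-fold. Each of these rules tests fewer or more genes, or asks for a larger fold, by its construction. No paired analysis was possible because each medium had 1 library, and for the same reason no library could be left out. The simulated libraries held counting noise alone, so differences between cultures or animals are not covered by any interval.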

Other observations

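Carriers of serine, asparagine and proline lay on both sides of equality. Of 10 measured carrier genes, 2 were at least 1.5-fold lower and 1 higher, with a median log2 difference of -0.02. The shares over all genes were 18.0% lower and 15.7% higher. The neutral amino acid carrier genes Slc1a4 and Slc38a2 had ratios of 1.35 (1.24 to 1.47) and 1.30 (1.26 to 1.34), while Slc1a5, the main glutamine carrier gene of activated T cells, went from 709 to 528 CPM. Slc36a4, a proline and tryptophan carrier gene, was 1.76-fold lower (1.46 to 2.12) and Slc25a15, which carries ornithine into mitochondria, 1.60-fold (1.42 to 1.81). Sfxn3, whose relative Sfxn1 carries serine into mitochondria, was 1.65-fold higher (1.48 to 1.85).

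Of 10 genes of the MYC network list, 1 was at least 1.5-fold higher and 2 lower, with a median of -0.02. Among all genes, 15.7% were higher and 18.0% lower at that fold. Myc went from 805 to 1308 CPM and was 1.62-fold higher (1.59 to 1.66). Cad, of pyrimidine synthesis, and Ldha, which encodes lactate dehydrogenase A, were 1.58-fold (1.53 to 1.63) and 1.59-fold lower (1.57 to 1.61).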
